A study of Homo sapiens with 2 samples.

Results

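ID1 and ID3 encode inhibitor of DNA binding proteins, and both were at least 1.5-fold more abundant in C4-2 prostate cancer cells given ebastine than in cells given vehicle. They were picked by name from the deposited table of FPKM values, a measure of transcript abundance scaled for transcript length and library size, and both of the 2 names were found among its 1947 genes. They had been picked with their difference between the libraries known, so every value below that sets ebastine against vehicle for ID1 and ID3 is a description and carries no test. C4-2 is an established human prostate cancer line of the LNCaP lineage. One group was C4-2 cells given ebastine, an antihistamine that blocks the H1 receptor, and the other was C4-2 cells given vehicle. The cells of both groups were at passages 10 to 15 and were grown in medium with serum. Polyadenylated RNA was sequenced, with 1 library per group. The sources used here do not give the dose or the time of exposure, and the depth of the libraries is unknown. A difference between the libraries therefore has no replicate check.

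ID proteins have a helix-loop-helix domain but no basic region. They pair with E proteins such as TCF3 and TCF12 and keep them, and the tissue-specific factors that need them, from binding E-box sequences in DNA. In many cell types ID genes are direct targets of bone morphogenetic protein (BMP) signalling. BMP ligands bind receptor kinases at the cell surface, the receptors phosphorylate SMAD1, SMAD5 and SMAD9, and these move with SMAD4 to promoters and enhancers of the target genes. SMAD6 and SMAD7 are inhibitory SMADs that the same signal induces as feedback. ID genes also respond to other inputs, serum and growth factors among them, so their level alone does not name the upstream signal.

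ID1 stood at 5.05 FPKM in the ebastine library and at 2.16 FPKM in the vehicle library. The ebastine library was the higher one by 2.90 FPKM, and the ratio of the deposited values was 2.34. On the log2 scale with a pseudocount of 1 FPKM added to each value, the difference was 0.94, or 1.92-fold. In the authors' deposited table ID1 had a log2 fold change of 1.23, a p-value of 5e-05 and a q-value of 0.00178. That p-value was the smallest in the table, and 385 genes shared it. It comes from a comparison of 1 library with 1 library, so it sets these libraries apart and not the treatments. In RNA from a whole culture, more cells that express a gene and more of its RNA per cell cannot be told apart.

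ID3 stood at 5.79 FPKM in the ebastine library and at 2.07 FPKM in the vehicle library. The difference was 3.72 FPKM and the ratio of the deposited values was 2.79. With the pseudocount, the log2 difference was 1.14, or 2.21-fold. The authors' deposited table gave ID3 a log2 fold change of 1.48, with the same p-value and q-value as ID1.

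**Figure D1:**
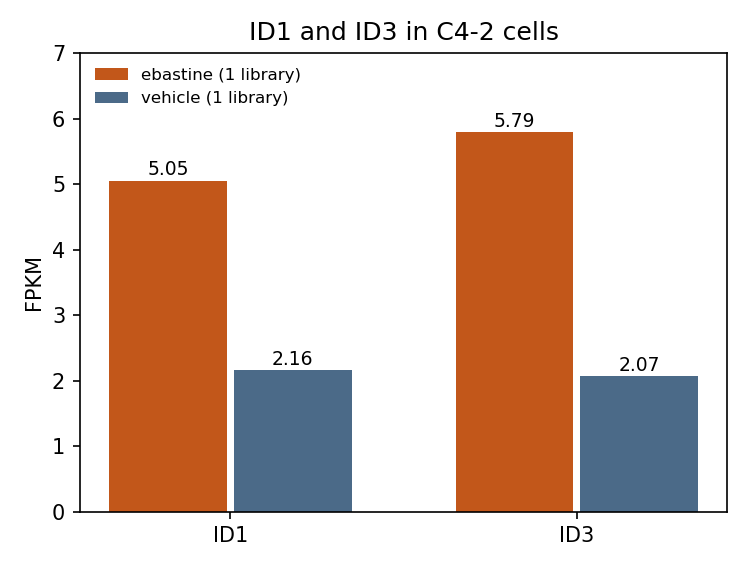
FPKM (vertical axis) of ID1 and ID3 in the ebastine library and the vehicle library, with 1 bar for each library and no error bars because each group held 1 library. The ebastine bars reach 5.05 and 5.79 FPKM, and the vehicle bars reach 2.16 and 2.07 FPKM.

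The levels of ID1 and ID3 lay close together in both libraries. ID3 was at 1.15 times the level of ID1 with ebastine and at 0.960 times its level with vehicle. With vehicle they differed by 0.087 FPKM, and with 1 library per group the order of the genes cannot be checked in either library. FPKM is scaled by transcript length, which allows the levels of ID1 and ID3 to be compared. The log2 difference was smaller for ID1 than for ID3 by 0.21 (ID1 minus ID3, -0.21), and no error can be put on that gap. Added up, ID1 and ID3 came to 10.8 FPKM in the ebastine library and 4.23 FPKM in the vehicle library.

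Both were genes of low abundance among those listed. In the ebastine library, 35.1% of the listed genes had a lower FPKM than ID1 and 37.8% a lower FPKM than ID3. In the vehicle library these shares were 18.9% and 18.5%. The median listed gene stood at 9.49 FPKM with ebastine and 10.5 FPKM with vehicle. At low levels the pseudocount reduces a ratio, which is why the 1.92-fold and 2.21-fold differences are smaller than the ratios of the deposited values.

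ID1 lies on chromosome 20, from 30193086 to 30194317 in hg19, and ID3 on chromosome 1, from 23884421 to 23886285. No other listed gene overlapped either locus. The GENCODE annotation of GRCh38 holds 2 transcripts of ID1, both protein coding. One has 2 exons and 994 bases, and the other keeps the intron and has 1 exon and 1233 bases. For ID3 it holds 3 transcripts, of which the protein-coding one has 3 exons and 1251 bases. The deposited values are per gene and do not separate these forms.

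Because ID1 and ID3 were higher in the same library and ID1 is a known SMAD target, the sequence before the start of each was searched for letters that SMADs bind. The search covered the 250 bases before the RefSeq start in GRCh38.p14 on both strands, for GTCT and for the GC-rich forms GGCGCC and GGAGCC. The ID1 stretch is shown up to the base before the outermost annotated start, at chr20:31605039-31605282 on the plus strand. For ID3, only the 30 bases that hold all its matches are shown, at chr1:23559643-23559672 on the minus strand, because GENCODE starts this gene 293 bases upstream of RefSeq and counts the region as transcribed. Capitals mark GTCT and GGAGCC on either strand, and in ID1 also TATAAA and CCAAT on either strand.
ID1: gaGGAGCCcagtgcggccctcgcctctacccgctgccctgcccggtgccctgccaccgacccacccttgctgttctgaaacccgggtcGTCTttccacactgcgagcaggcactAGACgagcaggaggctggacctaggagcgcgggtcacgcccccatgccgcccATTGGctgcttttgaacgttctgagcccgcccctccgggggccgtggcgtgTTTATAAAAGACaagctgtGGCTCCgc
ID3: ccgcGGCTCCgcgGTCTtcggcgtcAGACc

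In the ID1 window GTCT occurred 3 times and GGAGCC 2 times. In the ID3 window GTCT occurred 2 times and GGAGCC 1 time, and the 3 matches lay between 167 and 143 bases before the start. GGCGCC occurred in neither. These letters are common: GTCT was found in 77.5%, GGAGCC in 30.6% and GGCGCC in 16.4% of the 35116 RefSeq promoter windows of the same length. TATAAA was present in ID1, where it is read on both strands and its copies overlap, and not in ID3; 10.7% of all windows hold it. The E-box CANNTG was in neither window and in 61.8% of all windows. The whole ID3 window lies in the region that GENCODE counts as transcribed. What it lacks, TATAAA and the E-box included, therefore does not describe the sequence before the GENCODE start. The windows of ID2, ID4, SMAD6 and SMAD7 held 2, 1, 2 and 4 copies of GTCT. A match is a run of letters and not a measured binding site, and the windows leave out more distant elements.

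The ratios of ID1 and ID3 were in the upper part of the table. Ratios were ranked over the 1768 listed genes whose mean over both libraries reached 1 FPKM. Ordered from the highest, ID3 had rank 17 and ID1 rank 41. Both were at least 1.5-fold higher with ebastine, as were 171 of the 1768 genes, or 9.67%. ID3 alone of the pair was also at least 2-fold higher, as were 1.81% of these genes. In the authors' deposited table both had a q-value under 0.05, and there 15.6% of the listed genes had such a q-value and were higher with ebastine. Since ID1 and ID3 were chosen for this difference, nothing is read from these shares.

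The balance of higher and lower genes in the table depended on the scaling. Centring on the median ratio, here and below, used only genes that passed the p-value limit of the table, which leaves out genes near 0. A centred value near 0 therefore does not show that a gene was unchanged. As deposited, of the 1768 genes, 761 were higher and 1007 lower with ebastine, their median log2 ratio was -0.32, and 18.6% were at least 1.5-fold lower. By 1.5-fold or more, 171 genes were higher and 328 lower as deposited, 715 higher and 123 lower after centring on the median ratio, and 435 higher and 185 lower at equal upper quartiles. At a level like that of ID1 and ID3, with a mean from 2 to 6 FPKM, there were 394 listed genes. Their log2 ratios ran from -1.49 to 2.21 with a median of -0.31. Of these, 11 had a higher ratio than ID1 and 4 a higher ratio than ID3.

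**Figure D2:**
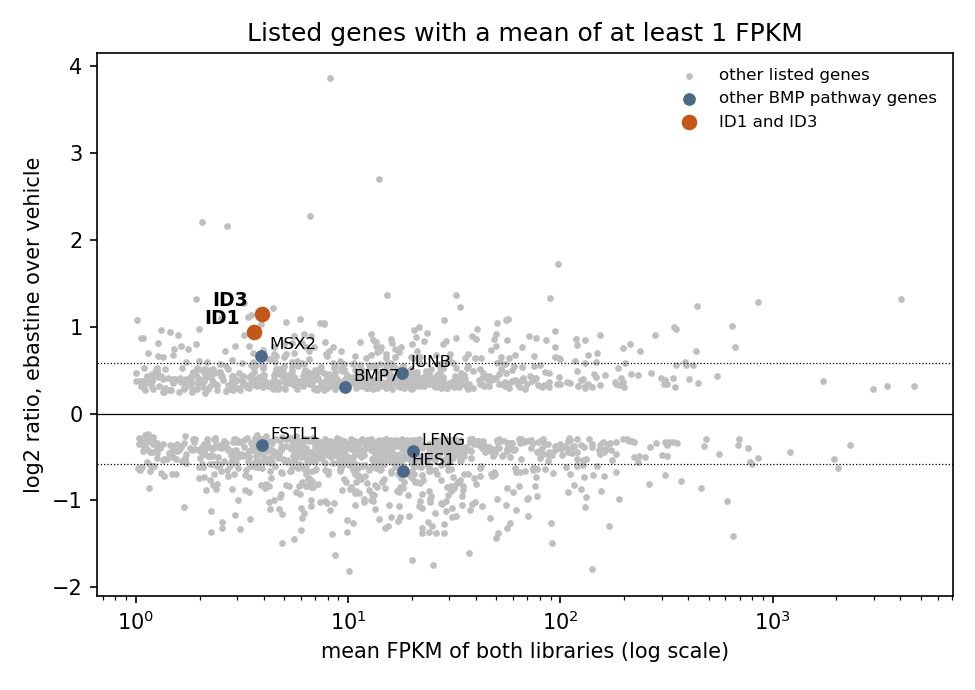
Log2 ratio of ebastine over vehicle (vertical axis, pseudocount of 1 FPKM) against the mean FPKM of both libraries (horizontal axis, log scale) for the 1768 listed genes whose mean reached 1 FPKM, 1 point per gene; dotted lines mark 1.5-fold either way. ID1 and ID3 lie at 0.94 and 1.14, above MSX2 at 0.67, and the empty band around 0 is left by the p-value limit of the table.

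The other ID genes and the feedback SMADs could not be compared. ID2, ID4, SMAD6 and SMAD7 are not among the 1947 listed genes. The table keeps genes with a p-value under 0.05 (0.0499 at most), and it holds 14.2% of the 13714 genes that the authors tested, a number worked out from the deposited q-values. The authors did not test a gene outside the table, or its p-value was at or over the limit. These 4 genes thus have no value here, and their place outside the table does not show that they were alike in both libraries.

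Of 57 ligands, receptors, SMADs and antagonists on 4 lists, 2 were listed, beside 14.2% of all genes tested. How many members of this and the lists below the authors tested is unknown, so no listed share can be set directly against that 14.2%. BMP7, the only one of 15 BMP ligands listed, stood at 10.8 FPKM with ebastine and 8.54 FPKM with vehicle, a 1.24-fold difference. FSTL1, a secreted protein that can bind BMP ligands, was the only one of 17 antagonists listed. It stood at 3.30 FPKM with ebastine and 4.55 FPKM with vehicle, 1.29-fold lower. After centring, the log2 ratios of BMP7 and FSTL1 were 0.62 and -0.10, against 0.31 and -0.37 as reported. In the authors' deposited table the q-values of BMP7 and FSTL1 were 0.320 and 0.115. None of 11 receptors and co-receptors and none of 14 SMADs and SMAD regulators was listed.

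Other targets of BMP signalling went both ways. Apart from ID1 and ID3 the target list held 23 genes, of which 5 were listed, 3 higher and 2 lower with ebastine. The listed share was 21.7%, beside 14.2% of all tested genes. The homeobox gene MSX2 came closest to ID1 and ID3. It stood at 4.99 FPKM with ebastine and 2.77 FPKM with vehicle, 1.59-fold higher. The authors' deposited table gives MSX2 a q-value of 0.00178.

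JUNB, a subunit of the AP-1 transcription factor that is also an immediate early gene, stood at 21.1 FPKM with ebastine and 15.0 FPKM with vehicle, a 1.38-fold difference. The netrin receptor gene UNC5B was near the lower end of the table, at 1.20 FPKM with ebastine and 0.678 FPKM with vehicle. In the opposite direction, HES1 stood at 13.8 FPKM with ebastine and 22.4 FPKM with vehicle, 1.58-fold lower. HES1 encodes a helix-loop-helix repressor best known as a Notch effector. LFNG, which encodes a glycosyltransferase that modifies Notch, stood at 17.1 FPKM with ebastine and 23.4 FPKM with vehicle, 1.35-fold lower. After centring, the log2 ratios of HES1 and LFNG were -0.35 and -0.11, against -0.66 and -0.43 as reported. Those of MSX2, JUNB and UNC5B were 0.95, 0.79 and 0.58, against 0.67, 0.47 and 0.39. For the 4 of these 5 genes whose mean reached 1 FPKM the median log2 ratio was 0.02, against -0.32 for all such listed genes. UNC5B, with a mean of 0.94 FPKM and a log2 ratio of 0.39, fell just outside that median. With so few genes, the median depends on this limit. In the authors' deposited table the q-value was under 0.05 for MSX2, HES1, UNC5B and JUNB and was 0.0690 for LFNG.

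**Figure D3:**
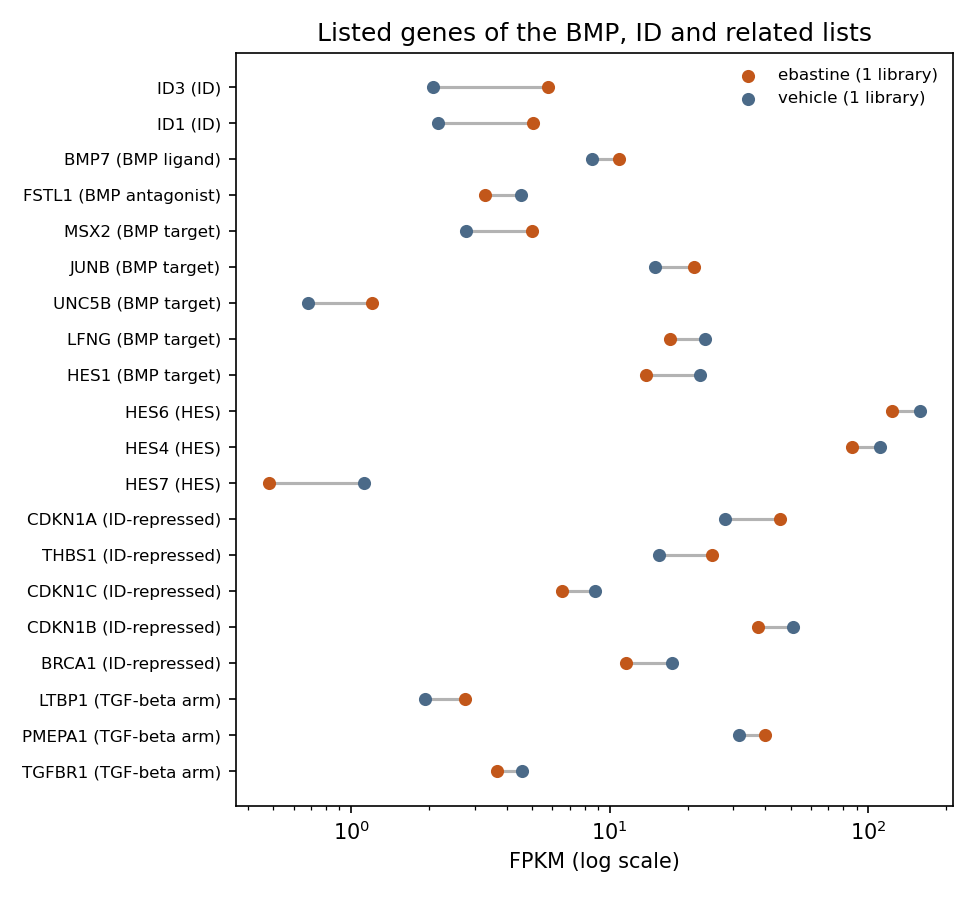
FPKM (horizontal axis, log scale) in the ebastine library and the vehicle library for each listed gene of the ID, BMP, HES, ID-repressed and TGF-beta lists, with a grey line joining the values of 1 gene. ID1, ID3, MSX2 and JUNB have the ebastine point on the right, and the 4 HES genes have it on the left.

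HES and HEY genes encode other helix-loop-helix repressors. Of 12 HES, HEY and related genes 4 were listed (33.3%, against 14.2% over all genes tested). The 4 were lower with ebastine. Of the 1768 listed genes whose mean reached 1 FPKM, which include 3 of these 4, 1007 were lower. HES4 stood at 86.6 FPKM with ebastine and 111 FPKM with vehicle, and HES6, which opposes HES1, at 124 FPKM with ebastine and 158 FPKM with vehicle. HES7, an oscillating gene of somite formation, stood at 0.479 FPKM with ebastine and 1.12 FPKM with vehicle. The log2 ratios of HES4 and HES6 were -0.36 and -0.35, beside the median of -0.32 for listed genes. They became -0.03 and -0.02 after centring. That does not show HES4 and HES6 to be unchanged, since the centring used genes already limited by p-value. Of the 3 whose mean reached 1 FPKM, HES1 alone was at least 1.5-fold lower. HES7, with a mean of 0.80 FPKM, was outside that count. Its log2 fold change in the authors' deposited table was -1.22, against -0.70 for HES1. In that table HES1 alone of the 4 had a q-value under 0.05. Of 21 partners of ID proteins, E proteins and ETS factors among them, OLIG1 was the only one listed (4.76%, beside 14.2%), at 0.582 FPKM with ebastine and 0.954 FPKM with vehicle.

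Of 8 genes reported elsewhere as repressed by ID proteins, 5 were listed (62.5%, beside 14.2% of all tested genes), 2 higher and 3 lower. The higher ones were the cyclin-dependent kinase inhibitor CDKN1A and the matrix protein THBS1. CDKN1A stood at 45.5 FPKM with ebastine and 27.8 FPKM with vehicle, 1.61-fold higher. THBS1 stood at 24.8 FPKM with ebastine and 15.6 FPKM with vehicle, 1.56-fold higher. The kinase inhibitors CDKN1B and CDKN1C were 1.36-fold and 1.30-fold lower, and the DNA repair gene BRCA1, at 11.5 FPKM with ebastine and 17.4 FPKM with vehicle, was 1.47-fold lower. After centring, the log2 ratios of CDKN1B, CDKN1C and BRCA1 were -0.12, -0.09 and -0.25, against -0.44, -0.38 and -0.56 as reported. The median log2 ratio of the 5 was -0.38, beside -0.32 for all listed genes whose mean reached 1 FPKM. In the authors' deposited table CDKN1C had a q-value of 0.183, and the other 4 had q-values under 0.05.

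The TGF-beta and activin arm, which signals through SMAD2 and SMAD3, had 3 of 22 genes in the table, or 13.6% beside 14.2% of all tested genes, and in the authors' deposited table no q-value of theirs was under 0.05. PMEPA1, a TGF-beta target that dampens the pathway and is also induced by androgen, stood at 39.9 FPKM with ebastine and 31.6 FPKM with vehicle. LTBP1, which stores latent TGF-beta in the matrix, stood at 2.75 FPKM with ebastine and 1.93 FPKM with vehicle. The receptor gene TGFBR1 stood at 3.65 FPKM with ebastine and 4.57 FPKM with vehicle. Its log2 ratio of -0.26 became 0.01 after centring.

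Immediate early genes, which share serum inputs with the ID genes, had 3 of 19 members listed, or 15.8% beside 14.2% of all tested genes. DUSP1, a MAP kinase phosphatase, stood at 11.6 FPKM with ebastine and 8.23 FPKM with vehicle, a 1.36-fold difference, and JUNB is given above. KLF4, a zinc finger factor, stood at 2.67 FPKM with ebastine and 6.29 FPKM with vehicle, 1.99-fold lower.

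By their levels in both libraries, the listed genes nearest to ID1 were ACPP, CAMK1D and ID3, and those nearest to ID3 were ACPP, ID1 and NOS3. Nearness was the distance over log2(FPKM + 1) in the 2 libraries, so it rests on 2 points per gene. ACPP, which encodes prostatic acid phosphatase, stood at 5.55 FPKM with ebastine and 2.21 FPKM with vehicle, at distances of 0.12 from ID1 and 0.08 from ID3. ID1 and ID3 lay 0.17 apart. CAMK1D, a calcium-dependent kinase gene, stood at 4.57 FPKM with ebastine and 2.24 FPKM with vehicle. NOS3, the nitric oxide synthase first described in endothelium, stood at 6.58 FPKM with ebastine and 2.28 FPKM with vehicle.

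Endothelial cells and fibroblasts can express ID1 and ID3 strongly, so markers of other cells were looked up. None of 5 endothelial, 5 fibroblast and 5 basal or squamous markers was listed, beside 14.2% of all tested genes. The table keeps genes by their difference between the libraries, so a place outside it cannot show that a cell type was absent. The lists are also short. Of 5 leukocyte markers CD4 was the only one listed (20%, beside 14.2%), at 0.693 FPKM with ebastine and 0.400 FPKM with vehicle. Markers outside the table have no value here, and their part in the result was not tested. Of 9 luminal prostate markers 4 were listed (44.4%, beside 14.2% of all tested genes), all at high levels. KLK3, the gene for prostate-specific antigen, stood at 1599 FPKM with ebastine and 2476 FPKM with vehicle, KLK2 at 272 FPKM with ebastine and 465 FPKM with vehicle, TMPRSS2 at 289 FPKM with ebastine and 362 FPKM with vehicle, and FOLH1 at 840.4 FPKM with ebastine and 495 FPKM with vehicle. After centring, the log2 ratio of TMPRSS2 was 0.01, against -0.33 as reported, and 2 of the 4 were higher and 2 lower, against 1 higher and 3 lower as reported.

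The pseudocounts and scalings tried could not change the direction for ID1 and ID3, so its sameness is no check. A pseudocount is added to both libraries, and each scaling raised the ebastine values. The log2 ratios ran from 0.49 to 1.22 for ID1 and from 0.61 to 1.44 for ID3. The low end in both came from a pseudocount of 5 FPKM, which is above the level of either gene with vehicle and takes ID1 below 1.5-fold.

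**Figure D4:**
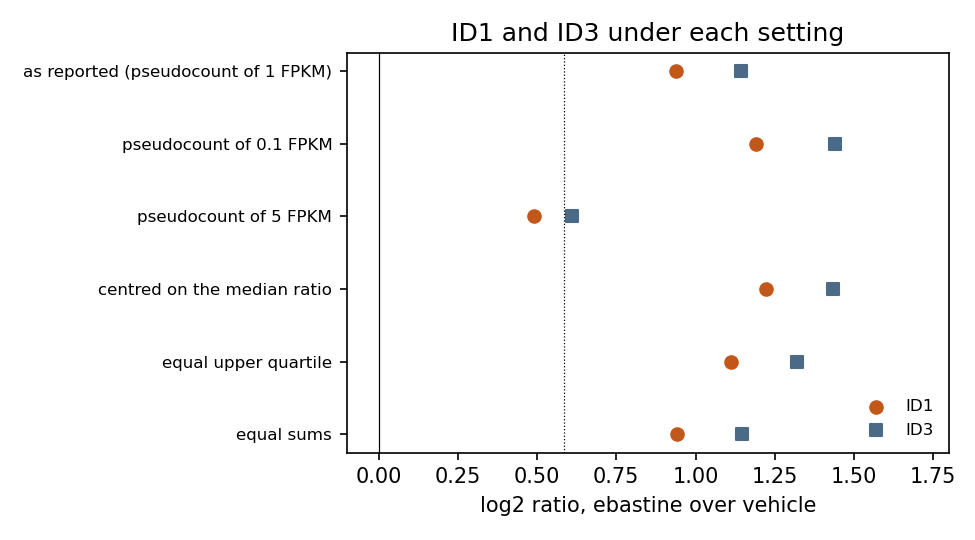
Log2 ratio of ebastine over vehicle (horizontal axis) for ID1 and ID3 under the reported setting and 5 alternatives (rows), with the dotted line at 1.5-fold. All points lie right of 0 and ID3 is right of ID1 in each row, which these settings could not change. ID1 at 0.49 with a pseudocount of 5 FPKM is the only point left of the dotted line.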

How the data were processed

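Polyadenylated RNA of C4-2 cells was sequenced in 1 ebastine and 1 vehicle library. The submitters' processing notes name TopHat2, Cuffdiff and hg19 and give no versions. The deposited FPKM values have the layout of a Cuffdiff gene comparison, per the file headers. The authors' log2 fold change, test score (not used), p-value and q-value per gene stand beside them. The sources used here give no gene models, scaling or strand setting, and depth is unknown, so no counting interval can be given. Without strand, reads of overlapping antisense genes cannot be told apart.

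Ratios were log2((ebastine + 1)/(vehicle + 1)), computed with pandas 2.3.3 in Python 3.11.15. They were checked on simulated data with higher vehicle levels and larger planted changes than those of ID1 and ID3, so that check does not cover their range. Counts past 1.5-fold cover genes whose mean over both libraries reached 1 FPKM. No test was made, since each group held 1 library. Locus starts count from 0 in the file and were converted; the locus length then equalled the RefSeq gene length for 79 of 1725 genes, against 28 otherwise. Names were matched through RefSeq symbols and synonyms (1725 current, 152 older, 70 in neither), and promoter sequences are from RefSeq GRCh38.p14. ID1, ID3 and the gene lists were chosen with earlier results of these data known. Genes named are ID1 and ID3, ID2, ID4, SMAD6 and SMAD7, listed members of the lists, and the 3 genes nearest to ID1 and to ID3 in level. Alternatives were pseudocounts of 0.1 and 5 FPKM, 3 scalings, other minimum levels and a 2-fold limit.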

Additional observations from a re-analysis of the deposited data

How the results depend on the processing

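No paired analysis was possible because each group held 1 library, and no replicate could be left out. The log2 ratio of ID1 was 0.94 as reported, 1.19 and 0.49 with pseudocounts of 0.1 and 5 FPKM, 1.22 after centring on the median ratio of listed genes and 1.11 at equal upper quartiles. For ID3 these values were 1.14, 1.44, 0.61, 1.43 and 1.32. The difference ID1 minus ID3 was -0.21 as reported and -0.25 and -0.12 with pseudocounts of 0.1 and 5 FPKM. Rescaling to equal sums multiplied the ebastine values by 1.001 and moved none of these by 0.01. Centring multiplied them by 1.26 (0.34 on the log2 scale) and equal upper quartiles by 1.15 (0.21).

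Genes higher by 1.5-fold or more numbered 171 as reported, 263 with a pseudocount of 0.1 FPKM, 84 with one of 5 FPKM, 715 after centring, 435 at equal upper quartiles and 32 at a 2-fold limit. Genes lower by 1.5-fold or more numbered 328 as reported, 432 and 179 with pseudocounts of 0.1 and 5 FPKM, 123 after centring, 185 at equal upper quartiles and 86 at a 2-fold limit. The split of the background into higher and lower thus depends on the scaling, which was computed on the table already limited by p-value. The cause was not tested.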

Other observations

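The listed genes on either side of ID1 and ID3 on their chromosomes did not share one direction. Next to ID1, the signal peptide peptidase gene HM13, 32.0 kb away in hg19, stood at 107 FPKM with ebastine and 84.8 FPKM with vehicle, and the spindle gene TPX2, 133 kb away, at 22.1 FPKM with ebastine and 46.8 FPKM with vehicle. Next to ID3, the cell cycle factor E2F2, 26.7 kb away, stood at 1.84 FPKM with ebastine and 2.48 FPKM with vehicle, and PITHD1, 219 kb away, at 32.0 FPKM with ebastine and 25.0 FPKM with vehicle. In the authors' deposited table TPX2 had a q-value of 0.00178, and HM13, E2F2 and PITHD1 had q-values of 0.224, 0.173 and 0.213. Genes outside the table can lie closer, and they have no value here.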
